A study of Homo sapiens with 10 samples.

Results

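The Sprouty genes SPRY1, SPRY2 and SPRY4, the SPRED genes SPRED1, SPRED2 and SPRED3, the PEA3 transcription factor genes ETV1, ETV4 and ETV5, and PHLDA1 were followed in melanoma cells before and after they became resistant to combined BRAFi/MEKi treatment. The genes were taken by symbol, 10 of the 57955 genes quantified. Their level was read in each library, and resistant was compared with sensitive within each cell line as a log2 ratio.

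RNA was analysed from 5 melanoma cell lines that carry BRAF V600E. WM983A, WM278 and WM902B came from primary tumours, and WM983B and WM1617 came from metastases. WM983A and WM983B were made from tumours of one patient, and so were WM278 and WM1617, so the 5 lines are not all independent of each other. The resistant counterpart of each line was grown in encorafenib, a BRAF inhibitor, together with binimetinib, a MEK inhibitor, at doses that began at 1 nM and reached 200 nM after 3 to 5 months. Resistant cultures were kept at 200 nM of the combination afterwards, while the sensitive lines were the parental cells. Continued exposure to the drugs and the acquired resistance therefore cannot be told apart in these data. Each line gave 1 sensitive and 1 resistant library of mRNA, so each group held 5 libraries, and a p-value measures the spread among these libraries only. Between 13693922 and 18033247 reads were counted per library.

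BRAF V600E drives MEK and ERK without a signal from outside the cell, and active ERK switches on genes that in turn restrain the pathway. Sprouty proteins act on the adaptor steps between receptors and RAS, and SPRED proteins bring neurofibromin, which turns RAS off, to the membrane. ETV1, ETV4 and ETV5 are ETS-family transcription factors that are transcribed and stabilised when ERK is active, and the repressor CIC holds PEA3 genes silent until ERK inactivates it. PHLDA1 encodes a pleckstrin-homology-like protein that is widely used as a readout of MEK and ERK output in melanoma.

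Promoters of the 10 genes were looked up whether or not the gene was lower in resistant cells. RefSeq promoter sequences of GRCh38.p14 were matched by symbol for 8 of the 10 genes, as 18 start sites, and not for ETV4 and ETV5. The 250 bases before each start were searched on both strands for the CIC octamer (TGAATGAA, TGAATGGA, TCAATGAA or TCAATGGA), for an ETS core (CCGGAA) and for the AP-1 site (TGANTCA). No match overlapped another. The windows below belong to the start that lies farthest upstream in SPRY2, SPRED1, ETV1 and PHLDA1. The first 3 of these genes were at least 2-fold lower in 3 lines after resistance, and PHLDA1 was lower by that much in 1 line. Each window is written 5′ to 3′ on the strand of the gene, and capitals mark a match, with TTCCGG as the ETS core read from the other strand.
SPRY2 (chr13:80341127-80341376, minus strand): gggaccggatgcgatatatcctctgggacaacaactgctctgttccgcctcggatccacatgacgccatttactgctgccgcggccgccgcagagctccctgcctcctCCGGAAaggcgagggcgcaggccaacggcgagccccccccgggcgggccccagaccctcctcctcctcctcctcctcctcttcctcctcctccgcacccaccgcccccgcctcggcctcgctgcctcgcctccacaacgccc
SPRED1 (chr15:38252586-38252835, plus strand): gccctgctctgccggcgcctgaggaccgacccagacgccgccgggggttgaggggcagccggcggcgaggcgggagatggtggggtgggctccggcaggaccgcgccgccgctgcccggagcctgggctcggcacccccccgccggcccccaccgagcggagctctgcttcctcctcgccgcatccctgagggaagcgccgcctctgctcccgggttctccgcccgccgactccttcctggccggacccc
ETV1 (chr7:13991426-13991675, minus strand): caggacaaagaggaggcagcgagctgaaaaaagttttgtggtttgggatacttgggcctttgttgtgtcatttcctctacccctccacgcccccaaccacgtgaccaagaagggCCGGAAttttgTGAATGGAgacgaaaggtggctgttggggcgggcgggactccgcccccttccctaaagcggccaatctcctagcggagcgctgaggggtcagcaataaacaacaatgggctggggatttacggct
PHLDA1 (chr12:76031777-76032026, minus strand): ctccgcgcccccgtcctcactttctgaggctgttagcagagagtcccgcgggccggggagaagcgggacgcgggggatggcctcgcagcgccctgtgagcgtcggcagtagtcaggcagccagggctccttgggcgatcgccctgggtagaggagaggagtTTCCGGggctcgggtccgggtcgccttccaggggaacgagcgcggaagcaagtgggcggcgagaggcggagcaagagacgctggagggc

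The CIC octamer was present before 1 start of ETV1, 125 bases upstream, and before 1 start of SPRED3, 192 bases upstream, and 3.18% of all 35116 promoters held it. The octamer was thus in 2 of the 18 windows. An ETS core lay in 6 of the 18 windows, beside 14.5% of all promoters. These 6 belong to SPRY1, SPRY2, ETV1 and PHLDA1, and 2 of them are overlapping ETV1 windows that hold the same site. The AP-1 site was in 1 of the 18 windows, of SPRED3, and 6.57% of all promoters held it. In ETV1 the octamer stood next to an ETS core, which began 136 bases before the start. SPRY4, SPRED1 and SPRED2 had none of the 3 motifs in their windows. These matches describe letters in a short window and were not compared with the levels of any factor.

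All 10 genes passed the filter on low counts, which kept 17287 genes. The resistant WM983A library stood apart from the others, because across these genes its log2 levels correlated more closely with sensitive WM902B (r = 0.813) than with sensitive WM983A (r = 0.787), whereas the other 4 resistant libraries were closest to their own line. Summed over 8 melanocyte markers, its level was 1308 normalized counts against 44427 in sensitive WM983A, with 1 marker at or under 3 reads. Counts and permutation tests are therefore also given without this line. Another library differed in the drug target itself: BRAF, named after its values were seen, stood at 625 normalized counts in sensitive WM1617 and 5430 in resistant WM1617, a log2 ratio of 3.12, while its ratios in the other lines ran from -1.20 to 0.73. Normalized counts here are counts scaled by edgeR's TMM factors to a common library size.

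Before resistance, PHLDA1 had the highest median level per exon length of the 10 genes and SPRED3 the lowest. In the sensitive libraries the median of PHLDA1 was 1196 normalized counts per kb of exon, followed by ETV4 at 604, SPRY4 at 565, SPRY2 at 515, SPRED1 at 400, ETV5 at 375, SPRED2 at 310, ETV1 at 118, SPRY1 at 20.0 and SPRED3 at 13.0. PHLDA1 was above ETV4, and SPRED2 was above ETV1, in 5 of 5 sensitive libraries, by 1.20 ± 0.67 and 1.33 ± 0.28 on the log2 scale (mean ± SD). The neighbours from ETV4 down to SPRED2 did not keep one order, since each such pair differed by less than the SD of its difference. ETV1 was above SPRY1, and SPRY1 above SPRED3, in only 3 of 5 sensitive libraries, with differences of 1.84 ± 2.02 and 1.77 ± 2.77 on the log2 scale. In the resistant libraries PHLDA1 remained first with a median of 1041 per kb, and ETV4 took the seventh place with a median of 71.2.

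**Figure D1:**
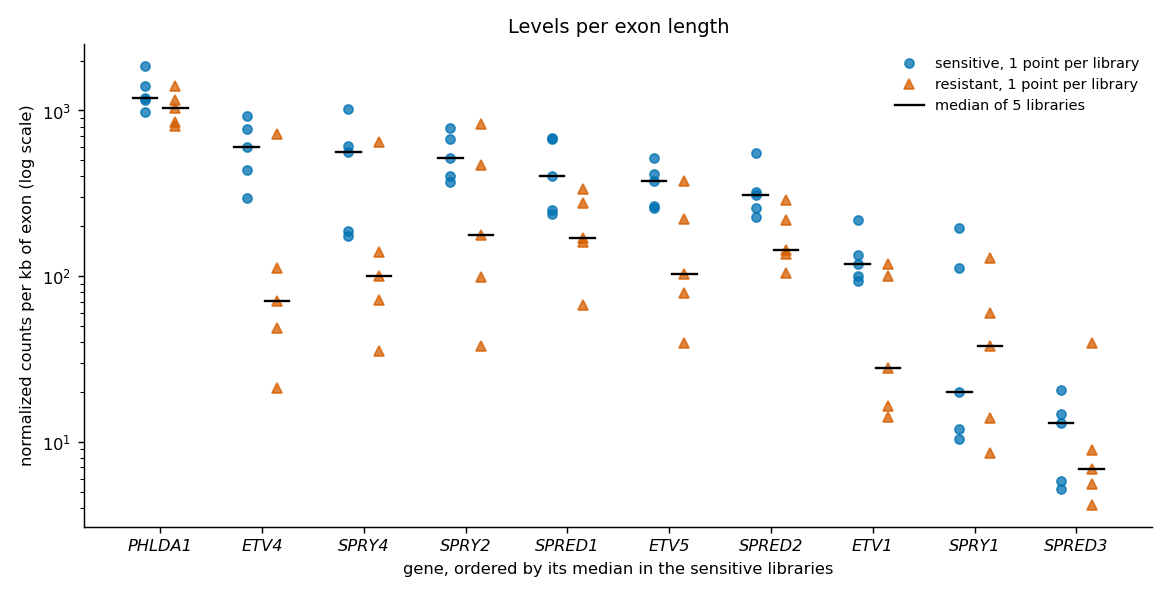
Normalized counts per kb of exon (vertical axis, log scale) of each gene in the 5 sensitive (circles) and 5 resistant (triangles) libraries, with the median of each group as a bar. The ETV4 median is 604 in sensitive and 71.2 in resistant libraries, whereas the PHLDA1 medians are 1196 and 1041.

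Among the Sprouty genes, SPRY2 and SPRY4 were lower in 4 of the 5 resistant lines, and SPRY1 had no common direction. SPRY2 (ENSG00000136158, chromosome 13, 80335976 to 80341126 in GRCh38) inhibits receptor signalling at the GRB2 adaptor step. Sensitive WM983A, WM983B, WM278, WM1617 and WM902B held 1293, 1194, 2509, 2169 and 1654 normalized counts. Resistant WM983A had 319, WM983B 566, WM278 1510.5, WM1617 2659 and WM902B 122. Resistant WM902B was thus 13.4-fold below its sensitive counterpart and resistant WM983A 4.05-fold below, while WM1617 was not lower, and the 2 groups overlapped. Over the lines the log2 ratio averaged -1.46 ± 1.52 (SD, n = 5). An exact two-sided permutation test of the 5 against 5 levels gave p = 0.127.

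SPRY4 (ENSG00000187678, chromosome 5, 142310427 to 142326455), a Sprouty that restrains RAS and RAF activation, showed one of the deepest differences in WM278. In the order WM983A, WM983B, WM278, WM1617 and WM902B, the sensitive libraries had 1220.2, 1153, 6672, 3982 and 3705 normalized counts. The resistant ones had 474, 915, 231, 4223 and 657 in the same order. In WM278, the line with the highest SPRY4 level before treatment, the resistant library was 28.8-fold lower and the lowest of all 10. Its log2 ratio averaged -1.79 ± 1.98 (SD, n = 5), and the exact permutation p was 0.0635.

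SPRY1 (ENSG00000164056, chromosome 4, 123396795 to 123403760), the third Sprouty measured, was scarce in 3 lines. Sensitive WM983A, WM983B, WM278, WM1617 and WM902B held 47.6, 41.1, 79.1, 443 and 773 normalized counts, and their resistant counterparts 149.9, 34.1, 55.4, 508 and 238. Resistant WM983A was 3.10-fold above its sensitive library, the only level at least 2-fold higher of the 10 genes in any line, and resistant WM902B was 3.24-fold lower. The mean log2 ratio was -0.13 ± 1.21 (SD, n = 5), with an exact permutation p of 0.905. Without WM983A it was -0.57.

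SPRED1 was lower in 4 of the 5 resistant lines and SPRED2 in 5, and SPRED3 had no common direction. SPRED1 (ENSG00000166068, chromosome 15, 38252836 to 38357249), whose loss of function causes Legius syndrome, ranged from 1833 normalized counts in sensitive WM983B to 5310.2 in sensitive WM278, with 3099, 1946 and 5181 in WM983A, WM1617 and WM902B. Resistant WM983A had 516, WM983B 1254, WM278 2145, WM1617 2611 and WM902B 1316. It was lower by a log2 ratio of -2.58 in resistant WM983A, 3.93-fold lower in WM902B and 2.47-fold lower in WM278, and it was higher in resistant WM1617, where the ratio was 0.42 on the log2 scale. The mean log2 ratio was -1.20 ± 1.18 (SD, n = 5), the exact permutation p was 0.0476, and without WM983A the mean was -0.85.

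SPRED2 (ENSG00000198369, chromosome 2, 65310851 to 65432637), which also recruits neurofibromin, was lower in 5 of 5 lines and varied less between lines than SPRY2, SPRY4 or SPRED1. Sensitive WM983A, WM983B, WM278, WM1617 and WM902B held 1427, 1244, 3059, 1783 and 1709 normalized counts, and the resistant libraries 795, 745, 1195, 1597 and 575. Only resistant WM1617 lay inside the range of the sensitive libraries. Its log2 ratio averaged -0.93 ± 0.55 (SD, n = 5), a 1.91-fold lower level, and the exact permutation p was 0.0317.

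SPRED3 (ENSG00000188766, chromosome 19, 38388421 to 38399587) had the smallest count of the set, 21.2 reads in resistant WM983A. It had 76.1, 120, 86.4, 30.4 and 34.2 normalized counts in sensitive WM983A, WM983B, WM278, WM1617 and WM902B and 24.4, 230.3, 52.0, 40.5 and 32.7 in their resistant counterparts. The ratio was negative in the 3 primary lines and positive in the 2 metastatic ones, with 0.94 in WM983B as the highest value on the log2 scale. With a mean log2 ratio of -0.21 ± 0.99 (SD, n = 5) and an exact permutation p of 0.762, the difference was smaller than the spread between lines, and without WM983A the mean was 0.14.

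The largest mean difference of the set was that of the PEA3 factor gene ETV4, with SPRY4 next, ahead of ETV1 and ETV5. ETV4 (ENSG00000175832, chromosome 17, 43527844 to 43579620) had 1528, 1035, 2125, 3239 and 2725 normalized counts in the sensitive libraries of WM983A, WM983B, WM278, WM1617 and WM902B. Their resistant libraries had 391, 250.3, 172, 2551 and 74.7. It was lower in 5 of 5 lines, by 36.0-fold in WM902B, 12.3-fold in WM278, 4.12-fold in WM983B, 3.90-fold in WM983A and 1.27-fold in WM1617. In WM983B, where the other 9 genes had ratios between -1.08 and 0.94, ETV4 still had a ratio of -2.04 on the log2 scale. ETV4 had a mean log2 ratio of -2.63 ± 1.83 (SD, n = 5), a 6.18-fold lower level, and the exact permutation p was 0.0317. Its exons share 68 bp, 1.93% of their length, with DHX8 on the opposite strand, which had up to 1270 reads in a library. Whether counting used strand is not given in the sources used here.

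ETV5 (ENSG00000244405, chromosome 3, 186046314 to 186110318) was also lower in 5 of 5 lines, though barely so in 2 of them. Before resistance WM983A, WM983B, WM278, WM1617 and WM902B had 2391, 1494, 1525, 2978 and 2163 normalized counts, and after it 598, 1286, 454, 2176 and 227. The differences were 9.50-fold in WM902B, 3.99-fold in WM983A and 3.35-fold in WM278, against 1.16-fold in WM983B and 1.37-fold in WM1617. ETV5 had a mean log2 ratio of -1.53 ± 1.24 (SD, n = 5), with an exact permutation p of 0.0397. Its exons share 164 bp, 2.84% of their length, with DGKG on the same strand, which had up to 491 reads in a library.

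ETV1 (ENSG00000006468, chromosome 7, 13891229 to 13991425), a factor needed for growth in some melanomas, was low in the resistant primary lines and near its sensitive level in the metastatic ones. Sensitive WM983A, WM983B, WM278, WM1617 and WM902B held 895, 1128, 2107, 961 and 1286 normalized counts, and the resistant libraries 157, 961, 267, 1136 and 136. It was 5.66-fold, 7.87-fold and 9.39-fold lower in WM983A, WM278 and WM902B, whereas the log2 ratio was -0.23 in WM983B and 0.24 in WM1617. The mean log2 ratio was -1.74 ± 1.62 (SD, n = 5), and the exact permutation p was 0.0714.

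PHLDA1 (ENSG00000139289, chromosome 12, 76025447 to 76031776) kept a high level in every resistant library. Sensitive WM983A, WM983B, WM278, WM1617 and WM902B had 8292, 5765, 10980.4, 6869.6 and 7073 normalized counts, and the resistant libraries had 8278, 6156, 4755, 6869.5 and 5024. WM278 was the only line with a difference of at least 2-fold, at 2.31-fold lower. The mean log2 ratio was -0.32 ± 0.55 (SD, n = 5), and the exact permutation p was 0.175. The antisense gene PHLDA1-AS1 overlaps 553 bp of its exons and had at most 12.1 reads in a library.

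**Figure D2:**
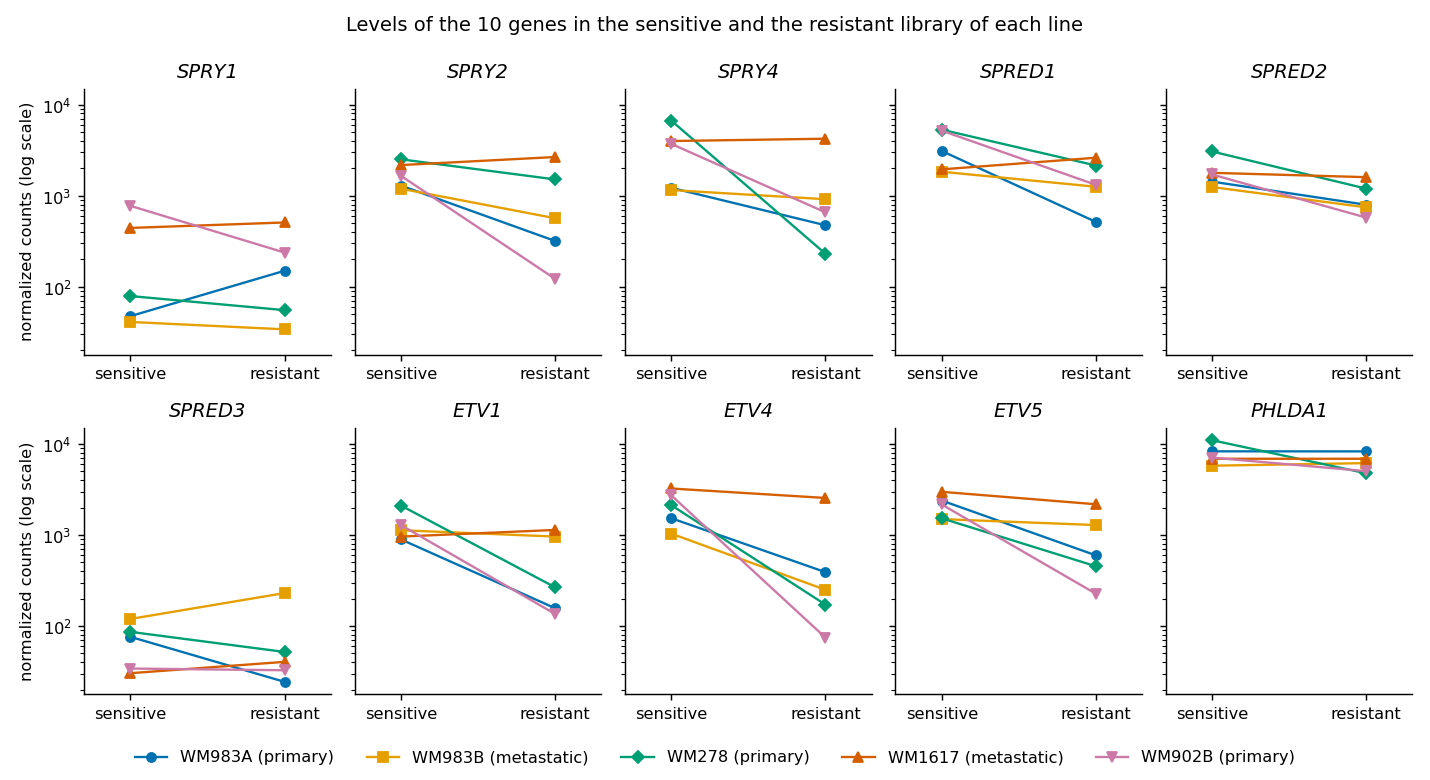
Normalized counts (vertical axis, log scale) of each gene in the sensitive and the resistant library of each line, joined by a line per cell line. The log2 ratios of WM1617 lie between -0.45 and 0.42 in all panels, while ETV4 in WM902B goes from 2725 to 74.7 and SPRY4 in WM278 from 6672 to 231.

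The permutation tests were 10 in number and were not adjusted, and the smallest p they can give is 0.00794. They leave the pairing of libraries by line out, and a paired test that flips the signs of the 5 ratios cannot go below 0.0625, so it could not reach 0.05. Without the WM983A line, a step added after the data were seen, the exact permutation of 4 against 4 levels gave p = 0.171 for SPRED1, 0.0571 for SPRED2, 0.0857 for ETV4 and 0.143 for ETV5, where the smallest p possible is 0.0286. None of the 4 genes below 0.05 with all lines was below it then. The mean log2 ratios without that line were -0.96 for SPRED2, -2.79 for ETV4, -1.42 for ETV5, -1.55 for ETV1, -1.31 for SPRY2, -1.90 for SPRY4 and -0.40 for PHLDA1. In 0 of the 10 genes did the 5 resistant libraries all lie below the 5 sensitive ones, and resistant WM1617 lay inside or above the sensitive range in each of the 10. With the WM1617 line left out, a step chosen after the data were seen, the 4 resistant libraries lay below the 4 sensitive ones in SPRY4, SPRED2, ETV4 and ETV5, that is in 4 of 10 genes beside 3.43% of all genes tested.

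The lines differed in how much of the set was lower. SPRY2, SPRY4, SPRED1, ETV1, ETV4 and ETV5 were at least 2-fold lower in 3 or more lines, 6 of 10 genes against 4.92% of all genes tested. With WM983A left out, 1 of the 10 genes, ETV4, was lower by that much in 3 or more of the other 4 lines, against 1.67% of all genes. In SPRY4, SPRED1, ETV1 and ETV5 these were the 3 primary lines, in SPRY2 WM983A, WM983B and WM902B, and in ETV4 every line but WM1617. In resistant WM902B, 8 of the 10 genes were at least 2-fold lower and 0 higher, where 12% of all genes were lower and 15.4% higher by that much. Their median log2 ratio was -2.23, a 4.71-fold lower level, and SPRED3 and PHLDA1 were the 2 genes not reaching the threshold.

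In resistant WM983A, 7 genes were at least 2-fold lower and 1, SPRY1, was higher, while 19.5% of all genes were lower and 16.8% higher. The median log2 ratio was -1.78. This is the library that stood apart, and the wide spread of all its genes (SD 1.77 on the log2 scale) is the widest of the 5 lines. In resistant WM278, 7 genes were at least 2-fold lower and 0 higher, beside 6.88% of all genes lower and 12.3% higher, with a median log2 ratio of -1.33. SPRY1, SPRY2 and SPRED3 were the genes that did not reach 2-fold in WM278, with log2 ratios between -0.73 and -0.51.

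The metastatic lines gave smaller ratios. In resistant WM983B, 2 genes, SPRY2 and ETV4, were at least 2-fold lower and 0 higher, against 10.7% of all genes lower and 16.8% higher, and the median log2 ratio was -0.30. In resistant WM1617, 0 of the 10 genes passed 2-fold in either direction, where 3.79% of all genes were lower and 2.85% higher. The median log2 ratio was 0.14, and the ratios ran from -0.45 in ETV5 to 0.42 in SPRED1. Set against its metastatic partner from the same patient, the primary line had the lower median in both cases, -1.78 in WM983A against -0.30 in WM983B and -1.33 in WM278 against 0.14 in WM1617. With 3 primary and 2 metastatic lines this difference was not tested. The median log2 ratio of all genes tested lay between -0.0037 and 0.028 in the 5 lines.

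**Figure D3:**
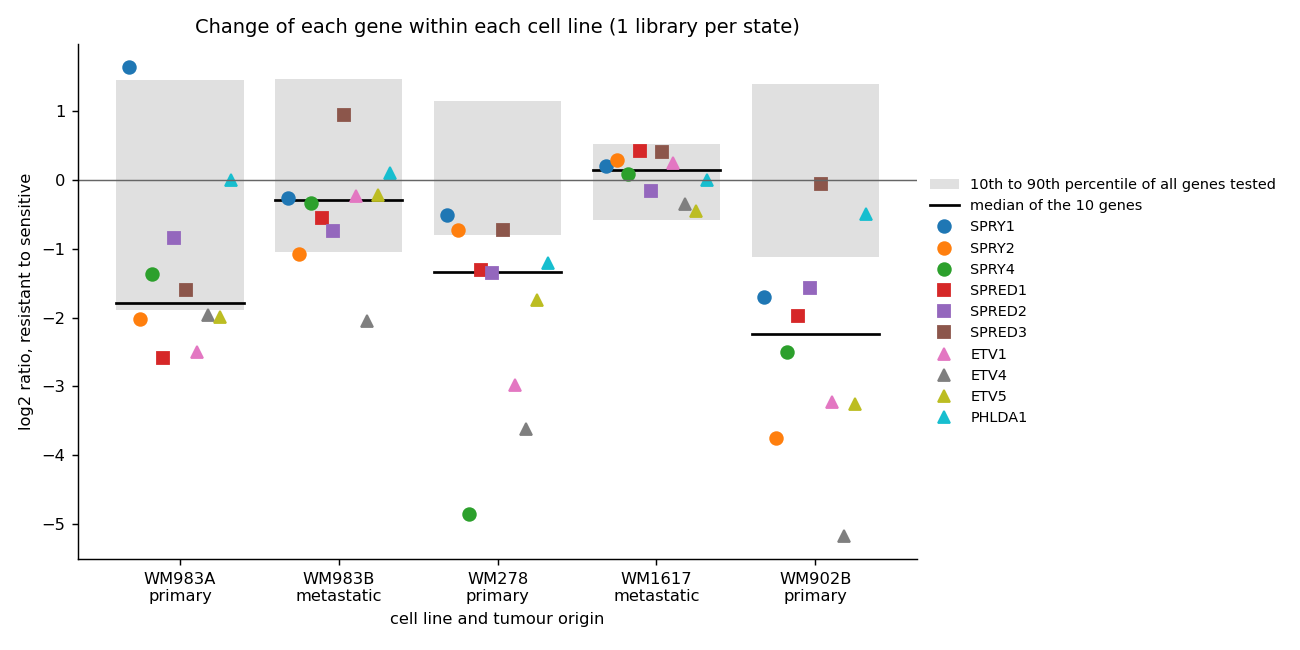
Log2 ratio of resistant to sensitive (vertical axis) of each gene in each line, with circles for Sprouty genes, squares for SPRED genes and triangles for PEA3 genes and PHLDA1. The black bar is the median of the 10 genes, from -2.23 in WM902B to 0.14 in WM1617, and the grey area spans the 10th to 90th percentile of all genes tested.

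Tested across all genes with edgeR's quasi-likelihood test, 5 resistant against 5 sensitive libraries, 0 genes passed a Benjamini-Hochberg adjusted p of 0.05 with a 2-fold change, and the smallest adjusted p was 0.630. With DESeq2 the count was 107, and none of the 10 genes was among them. At an unadjusted p of 0.05 and a 2-fold change, 3.57% of all genes were higher and 0.868% lower with edgeR. SPRED1 was the 1 member of the set past both thresholds, with a log2 fold change of -1.15 ± 0.46 (standard error) and an adjusted p of 0.682. SPRED2 had the smallest unadjusted p of the set, 0.0212, at a log2 fold change of -0.91 ± 0.34, which is under 2-fold. The fitted log2 fold changes of ETV4 and SPRY4 were larger, -1.63 ± 0.85 and -1.36 ± 0.79, with unadjusted edgeR p-values of 0.0829 and 0.114.

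The cell line was then entered as a block, which pairs each resistant library with the sensitive library of the same line. The adjusted p again let 0 genes pass, with 0.460 as the smallest value. At the unadjusted threshold 3.51% of all genes were higher and 1.95% lower, and 5 of the 10 genes were lower, namely ETV4, ETV1, ETV5, SPRY2 and SPRED1. ETV4 had a log2 fold change of -2.59 ± 0.72 and an unadjusted p of 0.00906 in this fit. ETV5 had -1.52 ± 0.47, ETV1 -1.78 ± 0.64, SPRED1 -1.21 ± 0.46 and SPRY2 -1.40 ± 0.57, with unadjusted edgeR p-values of 0.0157, 0.0285, 0.0336 and 0.0455. The adjusted p-values of these 5 genes lay between 0.460 and 0.467. SPRED2 had the smallest unadjusted p of the set, 0.00632, at a log2 fold change of -0.94 ± 0.24, again under 2-fold. SPRY4 missed the threshold at -1.67 ± 0.75, with an unadjusted p of 0.0635. DESeq2 with the same block, a fit added after the data were seen, called 507 of all 17287 genes after adjustment at 2-fold or more. ETV4, ETV5 and ETV1 were among them, all lower, with DESeq2 adjusted p-values of 0.00194, 0.0358 and 0.0425. No member passed adjustment at 2-fold in any other fit.

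**Figure D4:**
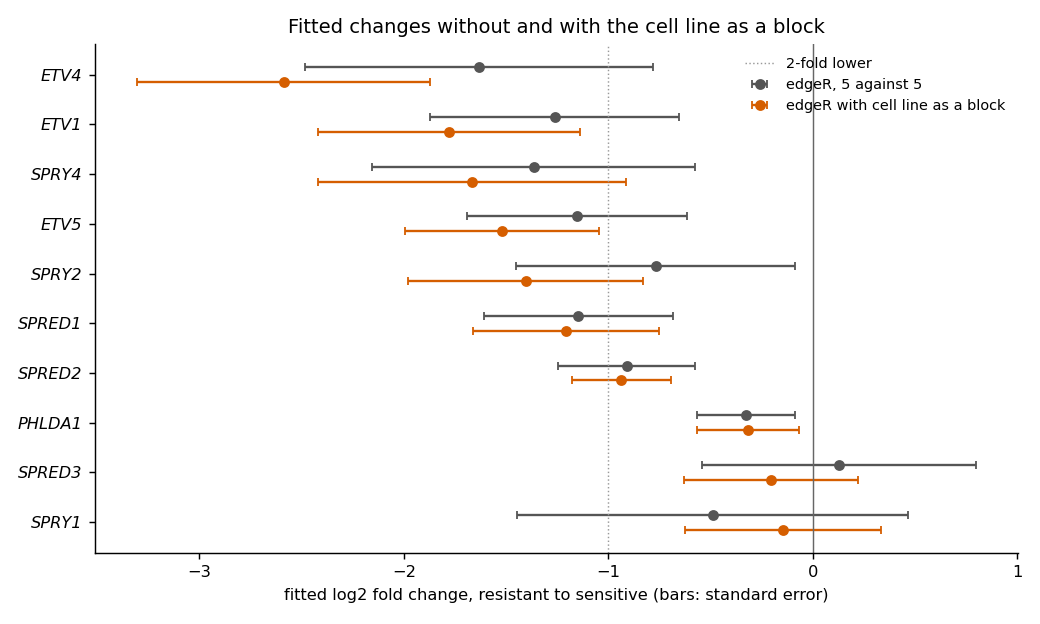
Fitted log2 fold change of resistant to sensitive (horizontal axis, bars are standard errors) for each gene without the block (grey) and with the cell line as a block (orange). The blocked value of ETV4 is -2.59 against -1.63 without the block, and the dotted line marks a level 2-fold lower.

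Which line was in the fit decided much of the count. Without the WM1617 line, 6 of the 10 genes were lower at the unadjusted threshold without the block and 7 with it. Of all 17424 genes tested then, 494 and 628 were lower. Without WM983A, WM278 or WM902B the counts of the 10 were 0 and 2 each time, and without WM983B 2 and 4. Among all genes, 85 and 271 of 17465 were lower without WM983A, and 196 and 457 of 17306 without WM278. Without WM902B these were 88 and 233 of 17376, and without WM983B 81 and 214 of 17431. ETV4 and ETV5 were lower in the blocked fit whichever line was left out. With WM983A left out, ETV4 had a log2 fold change of -2.79 and ETV5 -1.38, with unadjusted edgeR p-values of 0.0181 and 0.0470.

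Some other known targets of ERK were lower in the same lines. The dual-specificity phosphatases DUSP4 and DUSP6 remove phosphate from ERK, and both were lower in 5 of 5 lines, with log2 ratios from -2.52 to -0.39 for DUSP4 and from -4.09 to -0.31 for DUSP6. In both genes WM902B was the lowest and WM1617 the nearest to 0. In the blocked edgeR fit DUSP4 had a log2 fold change of -1.52 with an unadjusted p of 0.00212 and DUSP6 -2.14 with 0.0133. DUSP5, another dual-specificity phosphatase gene on the list, had no common direction. It was at least 2-fold higher in 3 lines and lower in 2, with log2 ratios from -3.29 in WM278 to 1.40 in WM983A. Of 23 other ERK targets, 3 were higher and 5 lower without the block, beside 3.57% and 0.868% of all genes. With the block 2 were higher and 8 lower, beside 3.51% and 1.95%. The 8 were DUSP4, DUSP6, the cytokine gene LIF, MAFF, SPHK1, PLAUR, RGS16 and EMP1. FOS and ZFP36, immediate early genes that stress signals also induce, were the 2 higher ones, with blocked log2 fold changes of 2.43 and 2.04 and unadjusted p-values of 0.0230 and 0.0149. The 3 higher genes without the block were FOS, EGR1 and ZFP36, and the 5 lower ones DUSP4, MAFF, LIF, PLAUR and KCNN4. Within lines, 13 of the 23 were at least 2-fold lower and 8 higher in WM983A, and 5 lower and 6 higher in WM983B. In WM278 and WM902B 15 were lower and 3 higher in each, and in WM1617 0 were lower and 2 higher. The shares of all genes in each line are those given above. CCND1, which encodes cyclin D1, had no common direction, with log2 ratios from -2.46 in WM902B to 1.72 in WM983A. The ephrin receptor genes EPHA2 and EPHA4 ran from -1.32 to 2.95 and from -1.71 to 2.35, with WM278 the lowest line in each.

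Of 14 chosen partners of Sprouty and SPRED proteins, among them GRB2, CBL and NF1, 0 passed the unadjusted threshold in either direction in either fit, a count near the shares of all genes given above, and the median log2 fold change was 0.10 without and 0.19 with the block. Of 7 regulators of PEA3 factors, CIC and the ubiquitin ligase gene COP1 included, 0 passed, with medians of -0.03 and 0.07. Among 12 other ETS genes tested of 15, ETS2 was the 1 higher gene with the block and 0 passed without it. In the cascade itself, KSR1, a scaffold for RAF and MEK, was the 1 of 13 genes past the threshold, with a log2 fold change of 2.06 without and 1.71 with the block. PHLDA2, a relative of PHLDA1, was lower in both fits, at -1.33 and -1.17, and PHLDA3 was lower with the block at -1.08. Of 10 receptor genes tested of 12, FGFR1 and PDGFRB were higher and NGFR lower without the block, at 1.08, 4.56 and -5.92, and 0 passed with it. Among all genes 3.57% were higher and 0.868% lower without the block. None of these 3 receptors had one direction in all lines. NGFR had log2 ratios of 2.70 in WM278 and 1.27 in WM1617, PDGFRB -1.34 in WM983A and FGFR1 -0.56 in WM1617. The receptor gene AXL and the lineage factor gene MITF, which are used to describe melanoma cell states, passed in neither fit, with log2 fold changes of 0.09 and -1.01 without the block. Single lines differed widely. The log2 ratio of MITF was -3.49 in WM983A, -2.81 in WM983B and -0.87 in WM902B, and 0.44 in WM278 and -0.25 in WM1617. That of AXL ran from -1.35 in WM278 to 1.57 in WM983A.

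**Figure D5:**
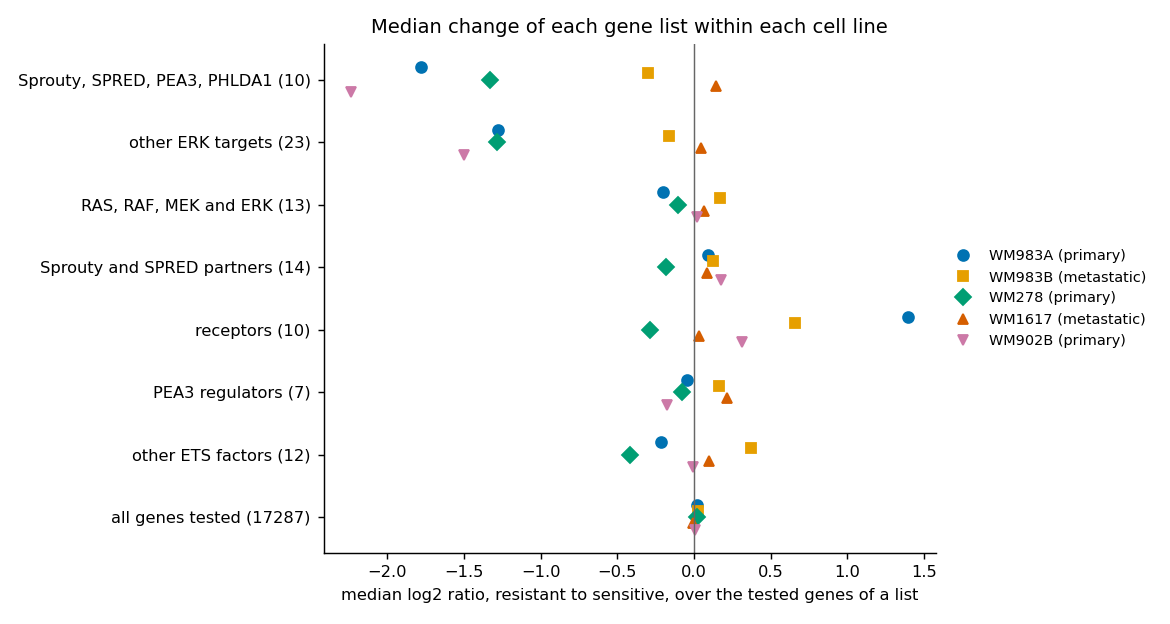
Median log2 ratio of resistant to sensitive (horizontal axis) over the tested genes of each list, with the number of genes in brackets and 1 symbol per line. The set of 10 genes and the other ERK targets lie at -1.28 or lower in the 3 primary lines, and the medians of all genes tested lie between -0.0037 and 0.028.

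Markers of cell identity also differed between the groups, in some of the same lines. The summed level of 8 melanocyte markers ran from 5554 to 68316 normalized counts in sensitive and from 1308 to 66474 in resistant libraries. It went from 44427 to 1308 between sensitive and resistant WM983A, from 27735 to 2411 in WM983B and from 42281 to 3961 in WM902B. It went from 5554 to 4916 in WM278, where 7 of the 10 genes were at least 2-fold lower, and from 68316 to 66474 in WM1617, where 0 of the 10 genes passed 2-fold. Of the 8 markers 1 was lower in each fit, beside 0.868% of all genes without the block and 1.95% with it. TYRP1 was lower without the block at -5.19, and TYR with it at -3.91, both pigment enzyme genes. TYRP1 had no common direction, with log2 ratios of -7.74 in WM983A, -6.47 in WM983B and -0.27 in WM1617. Its ratios were 0.96 in WM902B and 2.96 in WM278, from sensitive levels of 11.2 and 3.80 normalized counts. Summed fibroblast markers ran from 144 to 1338 in sensitive and from 137 to 24370 in resistant libraries. COL3A1 was at 0 in 4 sensitive libraries, and COL1A1 was higher in both fits and PDGFRB without the block. In resistant WM902B, COL1A1 held 18801 of the 24370. In WM983A the sum went from 1338 to 137, with 4 of the 5 tested markers at least 2-fold lower and 1 higher. Summed keratinocyte and epithelial markers ran from 498 to 4821 and from 1173 to 19847, with the highest value in resistant WM983A, and KRT8 was higher without the block at 2.72. Resistant WM983A held 11525 normalized counts of KRT8, 7203 of KRT18, 900 of CDH1, 167 of EPCAM and 36.9 of CLDN4. KRT5, KRT14 and TP63 stood at 12.1, 1.15 and 1.15 there, with log2 ratios of 0.55, -0.88 and -1.46. The log2 ratios of KRT8 and KRT18 were lowest in WM278, at -0.74 and -2.31, and highest in WM983A, at 6.06 and 3.33. In bulk libraries fewer cells of a type and less RNA per cell cannot be told apart, and the part of these markers in the differences of the 10 genes was not tested.

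The genes whose 5 within-line ratios came closest to those of a member were named for 4 members by the root-mean-square difference. For ETV4 they were ITGA6, HR and MPP4, at 0.82, 0.92 and 0.92 on the log2 scale. For ETV5 they were PXYLP1, HBEGF and TBC1D4 at 0.32, 0.38 and 0.43. For SPRY2 they were ST6GAL1, SIRPB1 and BNC2 at 0.22, 0.34 and 0.37, and for SPRY4 KCNN4, RP11-961A15.3 and PLAUR at 0.41, 0.58 and 0.88. HBEGF, KCNN4 and PLAUR belong to the other ERK targets above, a list of 23 among the 17287 genes tested. The nearest genes were picked by these same ratios, so this overlap is no independent support. No other member was among these nearest genes, and ETV1 was the closest member to ETV4, ETV5 and SPRY4, at 1.27, 0.67 and 1.04. Among all genes tested ETV1 ranked 17, 19 and 9 there. ETV5 was the closest member to SPRY2, at 0.72 and rank 40.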

How the data were processed

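Messenger RNA of 10 cell cultures, 5 sensitive and 5 resistant, was enriched with oligo-dT and sequenced single-end over 75 cycles. Alignment by the authors used HISAT2 and GRCh38, and StrandNGS served for quantification and normalization. The versions, the gene annotation and the handling of shared reads are not given in the sources used here. The raw values deposited are expected counts per gene, which include fractions. The deposited normalized column holds log2 values. These could be rebuilt to within 1.63e-06 as size-factor-scaled counts minus the sensitive library of the same line, and they served as an alternative only. A spreadsheet program had changed 455 raw values of 1 library into dates, which were restored from the normalized values of the paired library.

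The expected counts were rounded and analysed with edgeR 4.0.16 (filterByExpr, TMM, glmQLFit and glmQLFTest), limma 3.58.1 and DESeq2 1.42.0 in R 4.3.3. Standard errors of edgeR fits were derived as the absolute log2 fold change divided by the square root of the F statistic. Levels, figures and exact permutation tests on log2 values with 1 added were made in Python 3.11.15. All tests were two-sided, and the scripts were tested on simulated data. Following the study's criteria, genes were counted at 2-fold and p at most 0.05, unadjusted and after Benjamini-Hochberg adjustment over all genes tested. The pairing comes from the cell line: within a line, deviations from the group means correlated with r from 0.38 to 0.68 in 4 lines and -0.06 in WM983A. Positions and exon lengths are from GENCODE 44.

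The 10 genes and the other gene lists were chosen with earlier results of these data known, so no count over them is independent support. Named were the 10 genes, DUSP4, DUSP6, CCND1, EPHA2 and EPHA4, the genes of the other lists past the unadjusted threshold, the 3 closest genes of 4 members, MITF and AXL. Example partners, CIC and COP1 were named for orientation. DUSP5 and the epithelial markers other than KRT8 were named after their values were seen. Depth limits mainly SPRED3 and SPRY1, whose smallest counts were 21.2 and 35.3 reads, so their ratios carry the most counting error.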

Additional observations from a re-analysis of the deposited data

Results flagged for a closer look

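The ratio of SPRED3 was negative in the 3 primary lines, with a mean of -0.79 on the log2 scale, and positive in both metastatic lines, at 0.94 in WM983B and 0.40 in WM1617. It drew attention because the 2 kinds of line moved in opposite directions. The difference was not tested, and in WM902B the ratio was only -0.06. In 30 groups of 5 values (10 genes by level in the sensitive libraries, by level in the resistant libraries and by ratio), 0 held a value far from the others by Dixon's criterion, where chance alone marks about 1 in 20.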

How the results depend on the processing

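The count of genes past the adjusted threshold was 0 in the edgeR and limma-voom fits, 107 with DESeq2 and 507 with DESeq2 and the replicate block. At the unadjusted threshold 767 genes passed, against 1491 with DESeq2 and the replicate block, 2258 without the filter on low counts and 420 to 1693 with 1 line or library left out (1493 without the WM1617 line). Of the 10 genes, 1 passed in the reported fit, 2 with at least 10 counts in every library, 3 without the filter, 4 with DESeq2, 5 with limma-voom, 5 with edgeR and the replicate block, 6 with limma-voom or DESeq2 and the replicate block, and 0 to 7 with 1 line or library left out. The cause was not tested. All members that passed in any of these fits were lower in resistant cells. Lower genes among all 17287 tested numbered 150 in the reported fit, 202 with DESeq2 and 263 with limma-voom. With the replicate block they were 337 with edgeR, 369 with limma-voom and 654 with DESeq2. They were 94 of 13699 with at least 10 counts in every library and 470 of 38285 without the filter. With 1 line or library left out they ran from 81 to 628. Leaving out resistant WM1617 gave 7, and leaving out resistant WM983A, resistant WM902B, sensitive WM278 or sensitive WM902B gave 0. The fitted log2 fold change of SPRED3, 0.13, was -0.20 with edgeR and the replicate block, -0.21 with DESeq2 and the replicate block, -0.21 with limma-voom, -0.085 with limma-voom and the replicate block, and -0.89 to 0.39 with 1 line or library left out. SPRY1, at -0.49, reached 0.37 without sensitive WM902B and was -1.22 at the lowest, without resistant WM1617. With 1.5-fold in place of 2-fold, 1 gene in place of 0 was higher in WM983B. With 1 line left out, the exact permutation p, 0.0476 for SPRED1, 0.0317 for SPRED2, 0.0317 for ETV4, 0.0397 for ETV5 and 0.0635 for SPRY4, ran from 0.0571 to 0.171, 0.0286 to 0.114, 0.0286 to 0.114, 0.0286 to 0.143 and 0.0286 to 0.229, and the lowest value was without WM1617 in each of these 5 genes. With fewer libraries the smallest p possible rises to 0.0286. SPRED3 turned direction without WM983A and SPRY1 without WM902B, within ranges of 0.286 to 0.914 and 0.6 to 0.971. With DESeq2 size factors, library totals and pseudocounts of 0.5 and 5, the permutation results kept their direction and side of the threshold, and each within-line ratio moved by less than the SD of that gene's ratios between lines, as it also did with the deposited normalized values.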
